A study of Mus musculus with 10 samples.

Results

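A set of 9 genes of the inhibitory arm of B cell signalling were followed in RNA-seq libraries of mouse B cells with and without Pcbp1, which encodes a poly(C)-binding protein of the KH domain family. Members were the rows of the deposited count table whose symbol was Cd22, Fcgr2b, Cd72, Siglecg, Pecam1, Cd5, Pirb, Ptpn6 or Inpp5d, which gave 9 of 9 names among 55492 symbols. All 9 passed the filter on low counts, which kept 21010 genes. The 10 libraries formed 4 groups. Naive B cells from spleen on day 0 came from WT mice (naive WT, 2 libraries) or from mice carrying floxed Pcbp1 and Mb1-Cre, which act in the B lineage (naive KO, 2 libraries). Induced germinal center B cells (iGCB) on day 4 of culture with 40-LB feeder cells, fibroblasts that present CD40 ligand and BAFF, came from the same 2 genotypes (iGCB WT and iGCB KO, 3 libraries each). Age, strain, the Cre status of WT mice and the number of mice behind each group are not in the labels. By sex-linked genes the 2 libraries of each naive group came from different mice. For the iGCB groups nothing says so, and there the p-values measure a spread that may be technical.

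Inhibitory receptors set the threshold at which a B cell responds to antigen. Most of them carry, in the part that lies inside the cell, a short tyrosine motif called ITIM. When a Src-family kinase such as Lyn phosphorylates it, the motif recruits a phosphatase: SHP-1, the protein tyrosine phosphatase encoded by Ptpn6, or SHIP-1, the inositol lipid phosphatase encoded by Inpp5d. CD22 and Siglec-G (Siglecg) are lectins that bind sialic acid, CD72 is a type II membrane protein with a C-type lectin-like domain, FcγRIIB (Fcgr2b) binds the Fc part of IgG and works mainly through SHIP-1, PECAM-1 (Pecam1, CD31) binds itself on neighbouring cells, PIR-B (Pirb) binds MHC class I molecules, and CD5, best known on T cells and B-1a cells, damps antigen receptor signals. Germinal center B cells are known to signal weakly through their antigen receptor.

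The motif can be read in the coding sequences of the receptors, and it is shown because it is the feature that joins them to the phosphatases. In the principal transcript of each receptor (GENCODE M21, mm10), the translated cytoplasmic part was searched for isoleucine, valine, leucine or serine, any residue, tyrosine, any pair of residues, and then isoleucine, leucine or valine. The number of matches was 4 in Cd22, 3 in Siglecg, 3 in Pirb, 2 in Cd72, and 1 each in Fcgr2b, Pecam1 and Cd5. In Pecam1 a second site, which starts with threonine (the pattern of an immunoreceptor switch motif), was also found. The bases that code for 1 site of each receptor, and for the second site of Pecam1, are given 5′ to 3′ on the coding strand with the tyrosine codon in capitals.
Cd22: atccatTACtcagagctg
Siglecg: ctccacTATgctgctctc
Cd72: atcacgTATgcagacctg
Fcgr2b: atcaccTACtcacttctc
Pirb: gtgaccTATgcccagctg
Cd5: tctgctTATccagctctg
Pecam1 ITIM: gtagaaTACacagaagtg
Pecam1 switch: acggtgTACagtgagatc
In mm10 these sites lay in Cd22 exon 14 at chr7:30866600-30866617 (minus strand), Siglecg exon 12 at chr7:43417979-43417996 (plus), Cd72 exon 1 at chr4:43454498-43454515 (minus), Fcgr2b exon 8 at chr1:170961071-170961088 (minus) and Pirb exon 15 at chr7:3712786-3712803 (minus). The Pecam1 sites lay in exon 13 at chr11:106679577-106679594 and exon 14 at chr11:106671758-106671775 (minus), so the ITIM and the switch motif come from separate exons. The Cd5 site is divided by an intron between exons 9 and 10, within chr19:10719622-10720230 (minus). Ptpn6 had 1 match to the signature of tyrosine phosphatases (histidine, cysteine, any pair, glycine, any pair, arginine, then serine or threonine), and the 7 receptors and Inpp5d had none.

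In mm10 (GENCODE M21) the 9 protein-coding genes lie apart from each other on 6 chromosomes, with Cd22 (ENSMUSG00000030577.14) chr7:30865402-30880342, Siglecg (ENSMUSG00000030468.12) chr7:43408204-43418358 and Pirb (ENSMUSG00000058818.13) chr7:3711409-3720391 all on chromosome 7. The other receptors are Cd72 (ENSMUSG00000028459.11) chr4:43446462-43454628, Fcgr2b (ENSMUSG00000026656.15) chr1:170958617-170976547, Pecam1 (ENSMUSG00000020717.19) chr11:106654217-106750628 and Cd5 (ENSMUSG00000024669.8) chr19:10717116-10739002. The phosphatase genes are Ptpn6 (ENSMUSG00000004266.15) chr6:124720707-124738714 and Inpp5d (ENSMUSG00000026288.14) chr1:87620312-87720507. Siglecg and Inpp5d are on the plus strand and the other 7 on the minus strand. Counts were made per gene, so no isoform, exon or intron is told apart.

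The libraries held 33400672 to 63576147 counts. Among counts from 1 to 20, 17.7% to 26.9% were odd, a pattern seen where the 2 reads of a fragment each add 1, so counts cannot be taken as independent fragments. Pcbp1 (chromosome 6, 86524492 to 86526321) was at 152 and 83.8 CPM (counts scaled to the size of the library) in the naive WT libraries and 4.33 and 0.448 in naive KO. It was at 148, 327 and 326 CPM in the iGCB WT libraries and 3.70, 1.96 and 2.59 in iGCB KO, so every KO library lay below every WT library. Its log2 fold change was -5.59 (SE 0.82, adjusted p = 0.0561, and 1.91e-06 with DESeq2) in naive and -6.60 (SE 0.71, adjusted p = 0.00151) in iGCB cells by edgeR. The 8 B cell markers checked summed to 10100 to 32500 CPM, with none at 0 in a library. Cd79a, the gene into which Mb1-Cre is inserted, was the marker that was lower in KO at both stages (-1.60, adjusted p = 0.0126 in naive and -1.03, adjusted p = 0.00794 in iGCB cells). By Xist and Y-linked genes, naive WT 1 and naive KO 1 came from female and the other 8 libraries from male mice. Naive KO 2 stood apart in other cell types' RNA: 18 myeloid markers summed to 94.0 CPM there against 427, 627 and 836 CPM in the other naive libraries. Fibroblast markers (12 genes, the class of the feeder cells) summed to 4.68 to 23.3 CPM in naive and 32.1 to 79.3 CPM in iGCB libraries.

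To order the members, CPM were divided by the annotated exon length of each gene in kilobases (RPKM). In naive WT cells Ptpn6 (223 ± 111 RPKM, SD, n = 2) and Cd22 (206 ± 51.0) were the most abundant, and their libraries overlapped. Siglecg (91.2 ± 30.1), Inpp5d (74.2 ± 5.44) and Pecam1 (73.4 ± 4.31) followed, with neighbours in that order overlapping. Below them stood Cd72 (58.9 ± 15.3), Fcgr2b (30.0 ± 10.8), Pirb (16.7 ± 4.76) and Cd5 (1.93 ± 0.0509), each separate from the next. In naive KO cells the order was the same except that Pecam1 (65.7 ± 8.58 RPKM) and Inpp5d (60.3 ± 7.82) changed places, and these overlapped, as did Inpp5d and Cd72 (56.3 ± 5.31). In iGCB WT cells (n = 3) Cd22 led at 156 ± 14.0 RPKM, ahead of Ptpn6 (84.0 ± 8.17), Inpp5d (44.9 ± 3.82), Cd72 (23.9 ± 6.35) and Siglecg (18.4 ± 0.196), of which only the last 2 overlapped. Pecam1 (2.12 ± 0.293) and Fcgr2b (1.90 ± 0.599) overlapped each other, as did Cd5 (0.317 ± 0.0745) and Pirb (0.276 ± 0.0784). In iGCB KO cells Pecam1 (3.71 ± 0.401) no longer overlapped Fcgr2b (1.99 ± 0.400). Cd22 made up 26.8% ± 1.08 of the summed RPKM of the 9 genes in naive WT and 47.0% ± 2.80 in iGCB WT, and the sum itself was 775 ± 222 and 332 ± 15.9 RPKM.

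**Figure D1:**
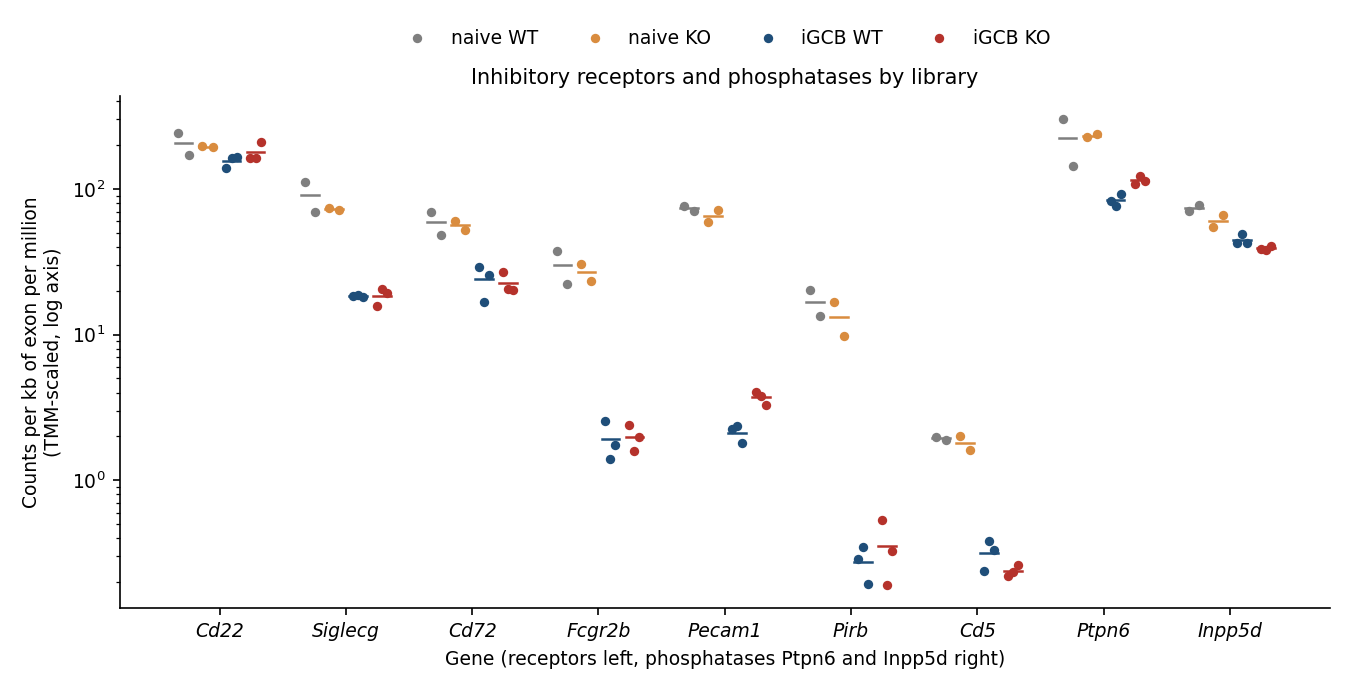
RPKM (log axis) of the 9 genes, with 1 point per library and a line at each group's mean (naive groups n = 2, iGCB groups n = 3). Cd22 stays within 140 to 242 RPKM in all 10 libraries, while Pirb drops from 9.79 to 20.1 in naive libraries to 0.192 to 0.535 in iGCB libraries.

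The comparison of iGCB with naive cells asked how the inhibitory genes change when B cells take on a germinal center-like state. In WT cells 8 of the 9 members were lower in iGCB cells by edgeR's quasi-likelihood test with Benjamini-Hochberg adjustment over all genes, and none was higher, where 31.7% of all tested genes were lower and 24.7% higher. The same 8 were lower in KO cells, where 31.4% of all genes were lower and 24.8% higher. All 9 members in WT and 8 in KO cells had iGCB libraries below every naive library of the genotype, as did 40.2% and 41.3% of all genes. The median log2 fold change of the 9 was -2.31 in WT and -1.98 in KO cells, against -0.25 and -0.26 over all genes tested. In these bulk samples, fewer cells of a type and less RNA per cell cannot be told apart. CPM are shares of a library's counts, so levels per cell were not measured. Naive and iGCB libraries also differ in culture, and the female libraries are both naive, so these cannot be told apart from the stage. Leaving out the female naive libraries left a lone library in each naive group. In that fit the 8 members still had log2 fold changes below 0 in both genotypes.

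Of the 2 sialic acid-binding receptors, Siglecg fell and Cd22 did not pass the threshold. Cd22 was at 1220 and 858 CPM in naive WT and 986 and 978 in naive KO cells. The iGCB libraries held 707, 819 and 838 CPM in WT and 823, 817 and 1050 in KO. The iGCB WT libraries lay just below the naive WT libraries, and the KO groups overlapped. Its log2 fold change was -0.40 (SE 0.19, adjusted p = 0.0978) in WT and -0.13 (SE 0.19, adjusted p = 0.588) in KO cells. In WT cells it passed with the other normalization RLE (-0.48, adjusted p = 0.0381), with DESeq2 (-0.48, adjusted p = 0.0221) and without naive WT 2 (-0.64, adjusted p = 0.0243), and it was -0.12 without naive WT 1. Siglecg was at 540 and 336 CPM in naive WT and 355 and 346 in naive KO cells. On day 4 the libraries held 88.4, 89.4 and 87.6 CPM in WT and 74.9, 98.8 and 92.6 in KO. All iGCB libraries lay far below all naive libraries. Siglecg fell in both genotypes, with log2 fold changes of -2.31 (SE 0.20, adjusted p = 7.76e-06) in WT and -1.98 (SE 0.20, adjusted p = 2.13e-05) in KO cells.

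The largest decreases belonged to Pirb, Pecam1 and Fcgr2b. Pirb was at 89.8 and 59.7 CPM in naive WT and 74.8 and 43.8 in naive KO cells. In iGCB cells the levels were 1.28, 1.56 and 0.863 CPM in WT and 2.39, 0.857 and 1.47 in KO, so the stages were far apart in every library. The log2 fold change was -5.92 (SE 0.43, adjusted p = 2.35e-06) in WT, 60.6-fold lower, and -5.23 (SE 0.42, adjusted p = 4.82e-06) in KO cells. Pirb is also a gene of myeloid cells, whose 18 markers summed to 94.0 to 836 CPM in naive and 25.9 to 86.2 CPM in iGCB libraries, with up to 8 of them at 0 in an iGCB library. Naive KO 2 held 4 defining myeloid markers (Csf1r, Lyz2, Adgre1 and Csf3r) at 27.2 CPM against 263 in naive KO 1, while Pirb was at 43.8 against 74.8 CPM. The part of myeloid cells in the Pirb decrease was not tested. The reads of Pirb can be shared with the near-identical activating Pira genes. Pira2 was at 5.77 ± 6.28 CPM in naive WT and 0.0493 ± 0.0854 CPM in iGCB WT, so the division between the 2 is uncertain.

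Pecam1 was at 476 and 438 CPM in naive WT and 371 and 447 in naive KO cells. After culture the libraries held 14.0, 14.6 and 11.1 CPM in WT and 25.3, 23.7 and 20.4 in KO. All naive libraries lay far above all iGCB libraries. The log2 fold change was -5.11 (SE 0.19, adjusted p = 6.06e-08) in WT, 34.6-fold lower, and -4.15 (SE 0.18, adjusted p = 2.88e-07) in KO cells. Pecam1 is also a classic endothelial gene. The 12 endothelial markers summed to 8.06 to 23.2 CPM in naive and 4.23 to 9.94 CPM in iGCB libraries, and Cdh5, a defining one, was at 0.907 to 3.65 and 0.641 to 2.01 CPM. The part of endothelial cells in the Pecam1 decrease was not tested. Fcgr2b was at 218 and 129 CPM in naive WT and 176 and 134 in naive KO cells. The day 4 libraries held 14.9, 8.10 and 10.1 CPM in WT and 13.8, 9.22 and 11.5 in KO. All iGCB libraries lay below all naive ones, with no separation by genotype. Its log2 fold change was -3.98 (SE 0.31, adjusted p = 3.46e-06) in WT, 15.7-fold lower, and -3.75 (SE 0.30, adjusted p = 5.28e-06) in KO cells. Its activating relatives Fcgr3 and Fcgr4, which resemble it in sequence, were at 10.5 ± 7.04 and 3.49 ± 2.23 CPM in naive WT and at 0.857 ± 0.551 and 0.185 ± 0.180 CPM in iGCB WT.

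Cd5 and Cd72 fell less. Cd5 was at 9.71 and 9.35 CPM in naive WT and 9.92 and 7.91 in naive KO cells. In iGCB libraries it stood at 1.17, 1.89 and 1.63 CPM in WT and 1.08, 1.16 and 1.29 in KO, values that rest on 38 to 68 counts a library. The log2 fold change was -2.60 (SE 0.35, adjusted p = 0.000124) in WT and -2.91 (SE 0.35, adjusted p = 6.99e-05) in KO cells. T cells express Cd5 strongly, and Cd3e, Cd3d, Cd3g and Trac, the defining genes of a list of 12 T and NK cell markers, were together at 7.06 to 28.8 CPM in naive and 1.08 to 2.00 CPM in iGCB libraries. The full list summed to 253 to 548 CPM in naive and 270 to 425 CPM in iGCB libraries, mostly from Cd2 in naive cells (447 CPM in WT) and Thy1 in iGCB cells (355 CPM in WT). Between the naive KO libraries the 4 defining genes were at 28.8 and 7.06 CPM while Cd5 was at 9.92 and 7.91 CPM. The part of T cells in the Cd5 decrease was not tested. Cd72 was at 239 and 165 CPM in naive WT and 205 and 180 in naive KO cells. The iGCB libraries held 99.5, 57.6 and 88.3 CPM in WT and 92.5, 70.1 and 69.0 in KO. The stages did not overlap, and the log2 fold change was -1.30 (SE 0.24, adjusted p = 0.00118) in WT and -1.32 (SE 0.24, adjusted p = 0.00112) in KO cells. On the other strand, Tesk1 overlaps 41.6% of the annotated exon bases of Cd72, and the strand setting of the counting is not given in the sources used here, so reads of the 2 genes cannot be told apart there. Tesk1 itself was at 5.23 ± 1.61 RPKM in naive WT against 58.9 ± 15.3 for Cd72.

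Both phosphatases fell. Ptpn6 was at 844 and 404 CPM in naive WT and 633 and 667 in naive KO cells. On day 4 the libraries held 233, 214 and 259 CPM in WT and 305, 342 and 318 in KO. The naive WT libraries differed widely from each other, yet all naive libraries lay above all iGCB libraries. The log2 fold change of Ptpn6 was -1.41 (SE 0.25, adjusted p = 0.000791) in WT and -1.02 (SE 0.25, adjusted p = 0.00552) in KO cells, and the WT value was -0.78 without naive WT 1 and -1.85 without naive WT 2, with both past the threshold. Inpp5d was at 535 and 594 CPM in naive WT and 416 and 501 in naive KO cells. In iGCB cells the levels were 323, 375 and 326 CPM in WT and 297, 289 and 310 in KO. The lowest naive library, naive KO 1, lay just above the highest iGCB library, and the log2 fold change was -0.73 (SE 0.15, adjusted p = 0.00214) in WT and -0.62 (SE 0.15, adjusted p = 0.00546) in KO cells. In KO cells the Inpp5d call was lost without naive KO 2 (-0.48, adjusted p = 0.0752) and with the replicate block (-0.64, adjusted p = 0.0606).

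**Figure D2:**
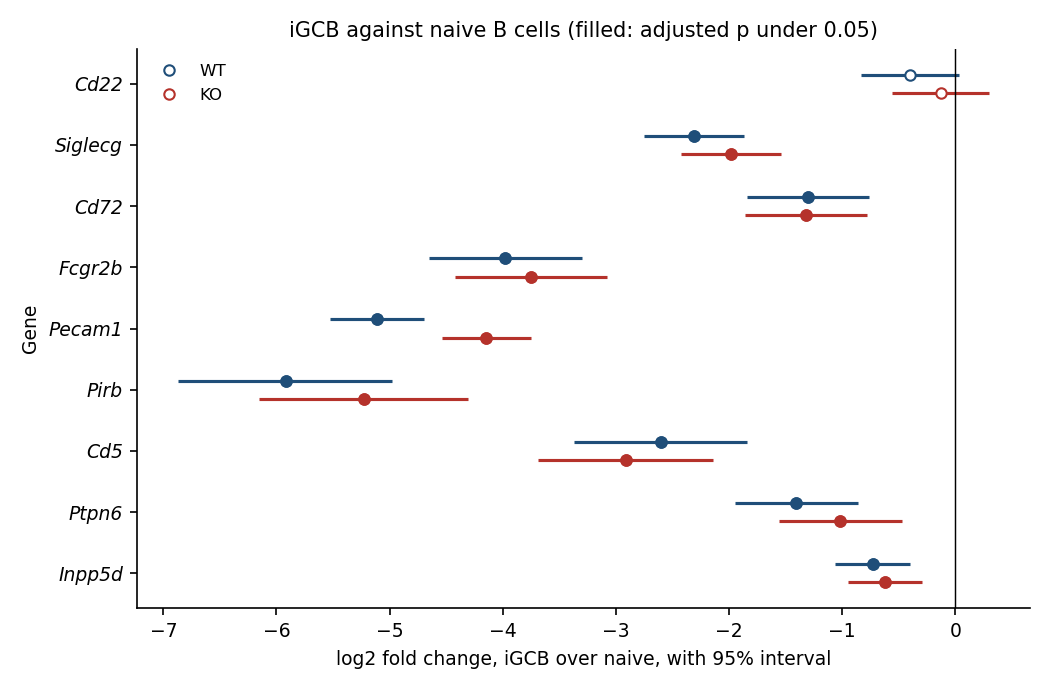
The log2 fold change of iGCB over naive cells for each gene in WT (2 naive, 3 iGCB libraries) and KO (2 naive, 3 iGCB), with bars for 95% intervals from edgeR and filled points for adjusted p under 0.05. The 8 filled genes are lower in both genotypes, from Inpp5d (-0.73 in WT) to Pirb (-5.92 in WT), and Cd22 is the open point.

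The comparison of KO with WT asked whether loss of Pcbp1 alters these genes at either stage. In naive cells 0 of the 9 members passed the threshold in either direction, as did 0.0143% of all genes tested upward and 0.0333% downward, and 0 had an unadjusted p under 0.05 (5.55% of all genes). With DESeq2 the count was also 0. The log2 fold changes ran from -0.33 for Pirb (95% interval -1.22 to 0.55) to 0.06 for Ptpn6 (-0.55 to 0.67), with a median of -0.16 against -0.05 over all genes. Inpp5d was the member whose naive groups did not overlap (535 and 594 CPM in WT, 416 and 501 in KO, log2 fold change -0.30, 95% interval -0.67 to 0.07), a pattern found downward in 12.7% of genes. The narrowest intervals were those of Inpp5d, Pecam1 (-0.57 to 0.25) and Cd22 (-0.55 to 0.39), so changes within those bounds were not excluded with 2 libraries a group. For KO 1 over WT 1 (female) and KO 2 over WT 2 (male), the log2 ratios were -0.31 and 0.19 for Cd22, -0.61 and 0.05 for Siglecg, -0.41 and 0.72 for Ptpn6, and -0.36 and -0.25 for Inpp5d. Inpp5d and Pirb (-0.26 and -0.45) were the members with the same sign in both pairs.

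In iGCB cells Pecam1 was higher in KO, as the only member past the threshold, where 0.343% of all genes were higher and 0.923% lower. It was also the only member with an unadjusted p under 0.05 (9.76% of all genes). The KO libraries held 25.3, 23.7 and 20.4 CPM and the WT libraries 14.0, 14.6 and 11.1 CPM, so every KO library lay above every WT library. The means were 23.1 ± 2.50 and 13.2 ± 1.82 CPM (SD, n = 3 each), a log2 fold change of 0.81 (SE 0.16, 95% interval 0.46 to 1.15, adjusted p = 0.0323), or 1.75-fold. Even so, iGCB KO cells held 5.05% of the naive WT level and iGCB WT cells 2.89%. Leaving out any 1 of the 6 iGCB libraries kept the direction (0.70 to 0.89) and lost the call (adjusted p 0.0707 to 0.163). The 12 endothelial markers summed to 5.55 to 9.94 CPM in iGCB WT and 4.23 to 5.90 CPM in iGCB KO, so the sum was not higher in the KO libraries. Much of it came from Egfl7, with means of 5.55 CPM in iGCB WT and 2.76 in iGCB KO. Up to 6 of the 12 markers were at 0 in an iGCB library. Cdh5 was at 0.641 to 2.01 CPM in iGCB WT and 0.796 to 0.882 CPM in iGCB KO. The part of endothelial RNA in the Pecam1 difference was not tested. The 18 myeloid markers summed to 25.9, 44.6 and 42.8 CPM in iGCB WT and 85.1, 42.9 and 86.2 CPM in iGCB KO. The myeloid sum of KO 2 lay within the WT range and its Pecam1 level was 23.7 CPM, while the part of myeloid RNA in the Pecam1 difference was not tested.

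The other members did not pass the threshold in iGCB cells. Ptpn6 also had groups that did not overlap (305 to 342 CPM in KO, 214 to 259 in WT), with a log2 fold change of 0.45 (SE 0.23, 95% interval -0.05 to 0.95, adjusted p = 0.574). Inpp5d did not overlap in the other direction (289 to 310 CPM in KO, 323 to 375 in WT, -0.19, SE 0.14, adjusted p = 0.744). Groups that did not overlap were found upward in 10.2% and downward in 10.3% of all genes. Cd22 (0.19, 95% interval -0.19 to 0.57), Siglecg (0.01, -0.39 to 0.40), Cd72 (-0.08, -0.57 to 0.41) and Fcgr2b (0.07, -0.52 to 0.65) had overlapping groups. Pirb (0.36, -0.49 to 1.21) and Cd5 (-0.41, -1.11 to 0.30), at 28 to 84 counts a library, had the widest intervals. Pirb was highest in KO 1 (2.39 CPM) and lowest in KO 2 (0.857 CPM), and the myeloid sums of those libraries were 85.1 and 42.9 CPM. The part of myeloid RNA in that spread was not tested. The median over the 9 members was 0.07, against 0.00 over all genes.

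**Figure D3:**
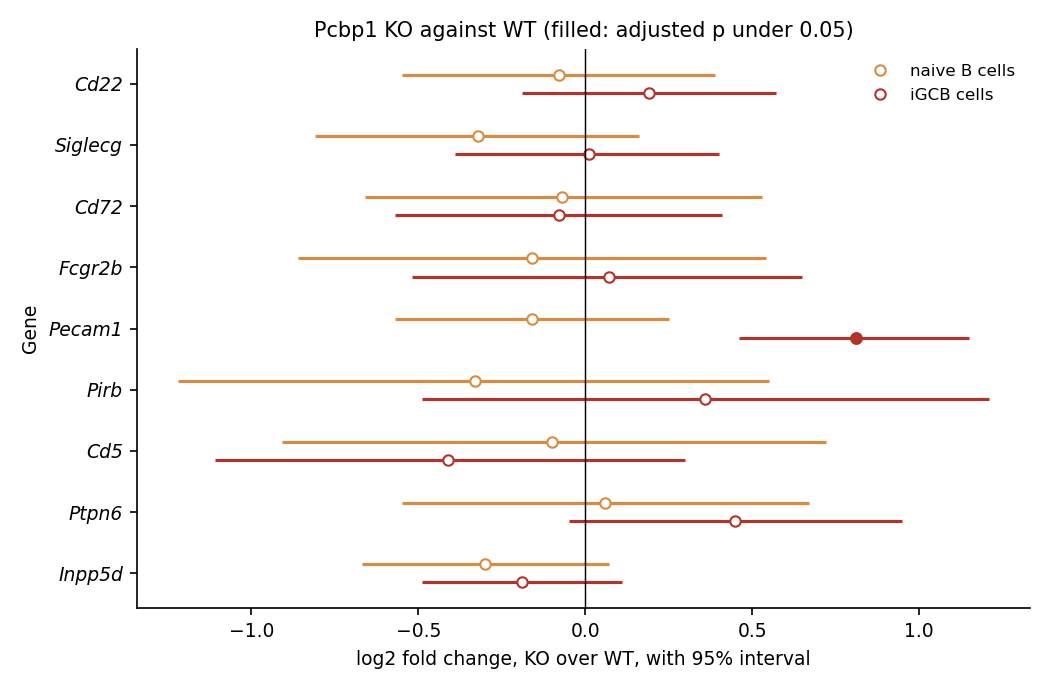
The log2 fold change of KO over WT for each gene in naive cells (2 and 2 libraries) and iGCB cells (3 and 3), with bars for 95% intervals from edgeR and a filled point for adjusted p under 0.05. Pecam1 in iGCB cells (0.81) is the one filled point, and the intervals of the other 17 estimates include 0.

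Whether the KO effect differed between stages was tested as an interaction over the 4 groups. For Pecam1 the difference of the log2 fold changes (iGCB minus naive) was 0.97 (SE 0.24, 95% interval 0.43 to 1.5, unadjusted p = 0.00218). After adjustment by edgeR's p-values over all genes it did not pass (adjusted p = 0.322). With DESeq2 it was 0.95 with an adjusted p of 0.031. The other 8 members had differences from -0.31 for Cd5 to 0.69 for Pirb and unadjusted p-values of 0.24 or more. No member passed with edgeR, where 0.0143% of all genes passed upward and 0.019% downward, and 1 of the 9 had an unadjusted p under 0.05 (6.06% of all genes).

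Genes of related lists were counted beside the shares over all genes tested. Of all genes, 31.7% were lower and 24.7% higher in iGCB than in naive WT cells (31.4% and 24.8% in KO). The lists mix genes of unlike action, so a count is not a result about inhibition. Among 24 genes tested of a list meant for other ITIM-bearing or inhibitory receptors, 13 fell and 6 rose from naive to iGCB cells in WT. The median was -3.34 in WT, against -0.25 over all genes, and in KO 13 fell and 2 rose. The list also holds Fcrl1 and Fcrla, which are not ITIM-bearing inhibitory receptors. Of the 17 myeloid markers tested, 13 fell in WT cells (median -6.59), and their part in the list's decrease was not tested. Pilra (-8.30, SE 1.35) and Siglece (-7.31, SE 1.02), both mainly known from myeloid cells, and Klrg1, an inhibitory lectin best known on NK and T cells (5.83, SE 0.77), had the largest changes among those past the threshold. These sizes rest on means near 0 at the lower stage. Pilra went from 9.5 to 0.0278 CPM, Siglece from 13.4 to 0.0821 and Klrg1 from 0.0421 to 2.51. Of 36 other phosphatases and adaptors, not all of them inhibitory, 18 fell and 6 rose in WT cells. Ptprj, the receptor phosphatase CD148, was at 713 CPM in naive and 6.55 CPM in iGCB WT (-6.77, SE 0.33). The ubiquitin ligase Cblb was at 356 and 8.69 CPM (-5.36, SE 0.26). Ptpn3, a non-receptor tyrosine phosphatase, rose by 7.18 (SE 0.66) on the log2 scale, from 0.371 to 55.1 CPM. Of 22 activating counterparts, 14 fell and 3 rose in WT cells (median -1.56). They include Lyn (-2.55, SE 0.21), the kinase that also phosphorylates ITIMs. Of 18 ligand and sialic acid genes, 4 fell and 7 rose (median -0.11). The list also holds genes of enzymes that remove sugars, such as Neu1 and Fuca1. Among the genes past the threshold were St3gal1 (-3.99, SE 0.28) and St3gal6 (2.14, SE 0.20), which add sialic acid in α2,3 linkage. Nans, a sialic acid synthase, also passed (1.59, SE 0.19). Of 14 B-1 and marginal zone genes, 10 fell and 1 rose (median -2.11). Plac8 was at -6.36 (SE 0.46), the Notch regulator Dtx1 at -5.10 (SE 0.24) and the transcription factor gene Zbtb32 at -4.50 (SE 0.48). Itgam (-3.26, SE 0.62) is also a myeloid marker, and the part of myeloid cells in this count was not tested.

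Between iGCB KO and WT, where 0.343% of all genes were higher and 0.923% lower, 4 genes of these lists passed. Fcrl1, a receptor of B cells in the Fc receptor-like family, was the only one of the 24 listed genes, and it is not an inhibitory receptor. It was at 25.0, 19.9 and 18.9 CPM in WT and 45.8, 39.3 and 42.8 CPM in KO, with no overlap. Its log2 fold change was 1.0 (SE 0.16, adjusted p = 0.013), which kept the threshold in 1 of the 6 fits without an iGCB library (largest adjusted p 0.0811). The median of the 24 was 0.58, with 17 above 0. The myeloid markers moved the same way (median 1.55 over 17 tested, 14 above 0, 0 past the threshold), several of the 24 are also expressed by myeloid cells, and the part of myeloid RNA in that median was not tested. Of the 22 activating counterparts, Cd38, an ectoenzyme and coreceptor, rose from 26.9 to 56.9 CPM (1.08, SE 0.20, adjusted p = 0.024, lost in all 6 such fits with a largest adjusted p of 0.127), Bank1, a B cell scaffold protein, rose by 2.88 (SE 0.26), and Cd79a fell by 1.03 (SE 0.15, kept in 4 of the 6 fits, largest adjusted p 0.0714). Of the 36 phosphatases and adaptors 0 passed, with Ubash3b, a phosphatase that dampens Syk-type signals, at 0.86 (SE 0.20, adjusted p = 0.0687) and Ptpn3 at -1.33 (SE 0.41, adjusted p = 0.215). Both passed with DESeq2 (adjusted p = 0.0027 and 0.000363) and also in other edgeR fits, among them the iGCB libraries alone (0.0158 and 0.00031). Of the 18 ligand genes 0 passed with edgeR, with St8sia6 at 0.82 (SE 0.22) and St3gal2 at -0.62 (SE 0.16), and of the 14 B-1 and marginal zone genes 0 passed, with Mzb1 at -1.73 (SE 0.40) and Zbtb32 at 1.65 (SE 0.43), and these 4 genes passed with DESeq2 (adjusted p = 0.0132, 0.0031, 0.000669 and 0.0102) and in other edgeR fits, such as the one without both male naive libraries (0.0462, 0.0353, 0.0188 and 0.0151). Without iGCB WT 3, Mzb1 was at -1.06. In naive cells the one gene past the threshold in these 5 lists was Cd79a (kept in 2 of the 4 fits that leave out a naive library, and lost with an adjusted p of 1 when the 4 naive libraries were fitted alone). Klrg1 (3.32, SE 0.76), Lilrb4a (0.96, SE 0.41), Ubash3b (1.24, SE 0.24), Dgka (-0.74, SE 0.28), St8sia6 (0.92, SE 0.26), St3gal6 (0.86, SE 0.20), Ahr (-0.58, SE 0.31) and S1pr3 (0.46, SE 0.17) had the smallest p-values there, and none passed in the edgeR fit of all 10 libraries. Klrg1, Ubash3b and St3gal6 passed with DESeq2 (adjusted p = 0.036, 0.000564 and 0.00918), and Ubash3b, St3gal6, St8sia6 and Lilrb4a passed in edgeR with no filter (adjusted p = 0.017, 0.0225, 0.0121 and 0.0429). The Klrg1 value rests on levels near 0, with means of 0.0421 CPM in naive WT and 0.434 CPM in naive KO. Lilrb4a was at 0.34 without naive WT 1 and at 2.02 without naive WT 2 (adjusted p = 0.0161), and Ahr at -0.99 and -0.02.

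**Figure D4:**
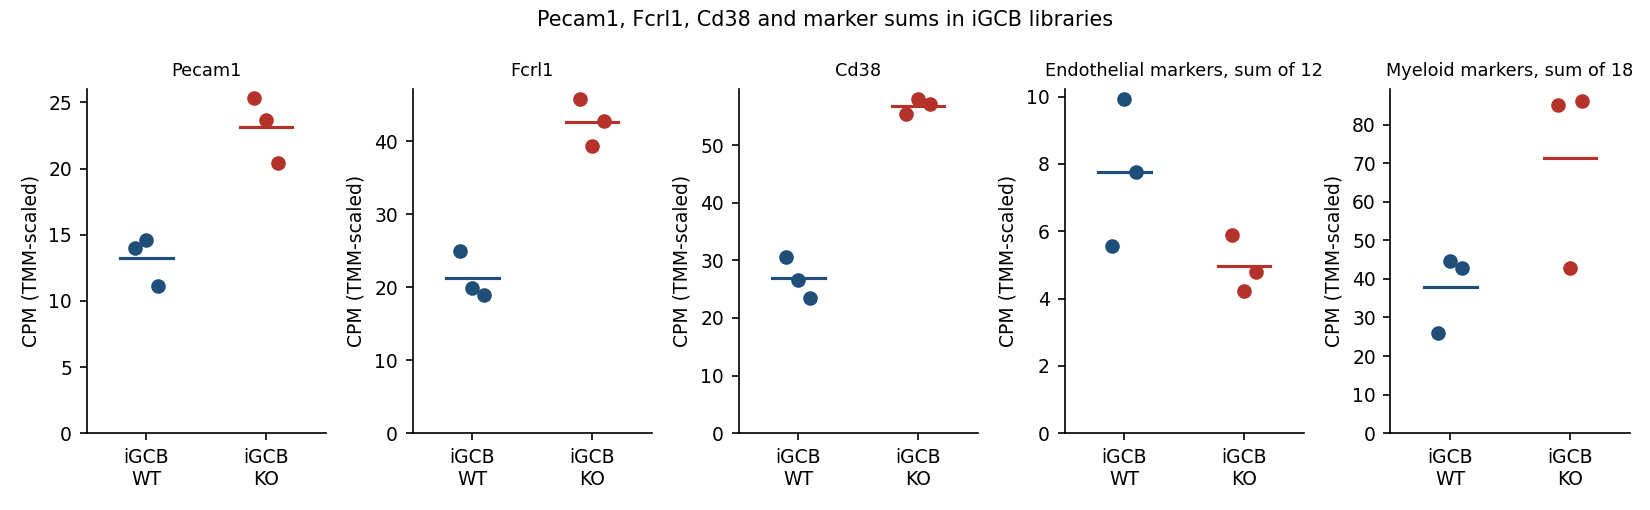
TMM-scaled CPM of Pecam1, Fcrl1 and Cd38, and the summed CPM of 12 endothelial and 18 myeloid markers, in the 3 WT and 3 KO iGCB libraries, with 1 point per library and a line at the mean. The 3 genes do not overlap between genotypes. The endothelial sums are 4.23 to 5.90 in KO and 5.55 to 9.94 in WT. The myeloid sums are 85.1, 42.9 and 86.2 in KO 1 to KO 3, and 25.9, 44.6 and 42.8 in WT. The part of endothelial or myeloid RNA in the Pecam1 difference was not tested.

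For each member, the genes with the nearest profile were sought among 9437 named genes, by the distance between log2 CPM profiles over the 10 libraries after each gene's mean was removed. The nearest were Syk and Chst15 for Fcgr2b (distances 0.775 and 0.923), Btk and Atp2a3 for Siglecg (0.364 and 0.470), and Dtx1 for Pecam1 (1.05). They were Klhl14 and Cblb for Pirb (1.27 and 1.5), Rasgrp1 and Arhgap4 for Cd5 (0.607 and 0.754), and Dpysl2 and Hipk1 for Cd72 (0.622 and 0.636). Dmac2 and Fam111a were nearest to Ptpn6 (0.440 and 0.514), Arfgef2 and Slu7 to Inpp5d (0.239 and 0.292), and Usp10 and Ubqln4 to Cd22 (0.283 and 0.312). All these profiles share the same libraries and the step between naive and iGCB cells, so the likeness is a description.

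Because 8 of the members fell together, the 200 bases before their RefSeq starts (GRCm38.p6) were searched on both strands for 9 motifs of B cell and general factors. The table of starts matched 8 of the 9 genes with 9 windows (2 for Siglecg); Pecam1 was not matched. The PU.1-type ETS sequence GAGGAAGT was found in the windows of Pirb, Cd72, Cd5 and Inpp5d, and in 2.06% of all 32851 windows of this length. The EBF sequence (TCCC, any 2 bases, GGGA) was found in Cd22 (0.594% of all windows) and the E2A E-box CAGGTG in Cd5 and Ptpn6 (13.9%). The octamer ATGCAAAT (1.38%), the ETS sequence CCGGAAGT, which shares its last 6 letters with the PU.1-type one (2.68%), the E-box CAGCTG (10.9%), the NF-kB sequence (GGGAC followed directly by TTTCC, 0.128%), TATAAA (9.96%) and the CRE TGACGTCA (1.47%) were in none of the members' windows. The windows of 3 genes are shown, 5′ to 3′ on the gene's strand with the motif in capitals: Pirb and Cd72 as 2 members that fell and hold the PU.1-type sequence, on opposite strands, and Cd22 as the member that did not pass.
Pirb: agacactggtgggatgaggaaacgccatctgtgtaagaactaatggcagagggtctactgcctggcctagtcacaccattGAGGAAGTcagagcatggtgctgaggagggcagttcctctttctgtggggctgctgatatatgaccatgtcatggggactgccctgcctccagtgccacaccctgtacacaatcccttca
Cd72: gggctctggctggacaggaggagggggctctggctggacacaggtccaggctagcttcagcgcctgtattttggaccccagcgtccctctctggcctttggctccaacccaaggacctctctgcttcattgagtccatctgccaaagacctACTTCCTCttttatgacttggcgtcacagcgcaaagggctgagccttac
Cd22: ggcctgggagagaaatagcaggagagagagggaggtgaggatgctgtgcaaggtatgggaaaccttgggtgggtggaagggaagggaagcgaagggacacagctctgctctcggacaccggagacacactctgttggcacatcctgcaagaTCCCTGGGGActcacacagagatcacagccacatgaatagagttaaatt
The windows lie at chr7:3720383-3720582 (Pirb), chr4:43454627-43454826 (Cd72) and chr7:30879029-30879228 (Cd22), all on the minus strand of GRCm38.p6, and sequences are from RefSeq. A match is a description of the letters, not of binding.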

How the data were processed

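Gene expression was measured by RNA-seq of total RNA with an mRNA library kit. The deposited values are raw counts by gene symbol, from featureCounts on mm10 per the submitters' processing notes. The aligner, annotation, versions and strand setting were not given in the sources used here. Genes passing edgeR's filterByExpr (minimum count 10) were normalised by TMM and fitted with edgeR 4.0.16 (R 4.3.3), quasi-likelihood, 1 fit of the 4 groups with 6 residual degrees of freedom. P-values, all two-sided, were adjusted by Benjamini-Hochberg over 21010 genes at a threshold of 0.05, and SE is the absolute log2 fold change over the square root of F. CPM use TMM-scaled totals, and RPKM the merged exon length of GENCODE M21. The chi-square per degree of freedom between libraries of a group was 24.4 or more, so none was counted as a repeat. Named list genes were the up to 4 largest changes past the threshold per list and KO comparison, or, with none past it, the 2 of smallest p, and the 3 largest per stage comparison, of which examples are given. The members and lists were chosen with earlier results of these data known. Alternatives were RLE, library size, DESeq2 1.42.0, no filter, the compared groups alone, a replicate block, and leaving out libraries. The fit was also run on simulated independent counts without sex effects, and no result here rests on that run. One gene with a profile near that of Pecam1 is not reported here.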

Additional observations from a re-analysis of the deposited data

How the results depend on the processing

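The 8 decreases from naive to iGCB WT cells kept their direction and threshold under all 18 alternatives, and so did those in KO cells other than Inpp5d, whose exceptions stand with its result. Alternatives that left out a naive library had a lone library in that naive group. Members lower in WT cells numbered 8 to 9, and in KO cells 7 to 8, over the fits without 1 library. The count of members higher in iGCB KO cells was 0 to 1 over the fits without 1 library, 0 in each of the 6 without an iGCB library, where fewer libraries were tested. With DESeq2, 1 member (Pecam1) had a higher KO effect in iGCB than in naive cells. The replicate block, which joined libraries of 1 number within a stage, gave 0.81 for Pecam1 in iGCB cells (adjusted p = 0.0122). For iGCB against naive it joined numbers within a genotype. No member's call changed there except that of Inpp5d in KO cells (-0.64, adjusted p = 0.0606). Libraries numbered 1 were female in naive and male in iGCB cells, so that block joined different mice. The block within a stage gave 212 higher and 377 lower genes in iGCB KO cells against 72 and 194. After group means were removed, same-number libraries correlated at 0.67 in naive cells and at 0.54, -0.18 and 0.017 in iGCB cells. Because of the iGCB values, the numbers were not taken to pair the samples. Across stages, same-number libraries correlated at -0.14 and 0.15 in WT and at -0.14 and -0.23 in KO cells. With 2 libraries a group, both naive numbers give the same value by construction. Same-number naive libraries also share their sex, so a pairing there cannot be told apart from sex. With the replicate block no member was called in naive cells either.

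Values that missed the threshold and changed sign did so as follows, and the cause was not tested. In naive KO against WT without 1 library, the ranges were -0.32 to 0.19 for Cd22, -0.50 to 0.26 for Fcgr2b, -0.32 to 0.22 for Cd72, -0.63 to 0.05 for Siglecg, -0.39 to 0.68 for Ptpn6 and -0.28 to 0.05 for Cd5. With library size alone, which moved the median of all genes by 0.13, they were 0.06 for Cd22, 0.08 for Cd72 and 0.04 for Cd5. Without both female naive libraries they were 0.18 for Cd22, 0.05 for Fcgr2b, 0.11 for Cd72, 0.03 for Siglecg and 0.02 for Pecam1. Without both male naive libraries they were -0.42 for Ptpn6, 0.03 for Cd5 and 0.01 for Ahr. In iGCB cells without 1 library, the ranges were -0.11 to 0.34 for Fcgr2b, -0.28 to 0.08 for Cd72, -0.09 to 0.11 for Siglecg and -0.08 to 0.64 for Pirb, and Siglecg was at -0.03 with no filter. For the difference of KO effects, the ranges were -0.19 to 0.57 for Fcgr2b, -0.30 to 0.24 for Cd72, -0.05 to 0.64 for Siglecg and -0.23 to 0.84 for Ptpn6. Without both female naive libraries Siglecg was at -0.03 and Ptpn6 at -0.26, without both male ones Cd72 was at 0.14, and with library size alone Inpp5d was at -0.03.

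Counts over all genes moved more. In iGCB KO cells they ran from 12 to 329 higher and 26 to 551 lower over the alternatives, and in naive KO cells from 0 to 126 higher and 0 to 116 lower, against 3 and 7. The difference of KO effects gave 0 to 115 higher and 0 to 258 lower genes, against 3 and 4. In WT cells 4219 genes were lower in iGCB cells with the replicate block, against 6661. The lowest depth limits Pirb and Cd5 in iGCB cells, at 28 to 84 counts a library.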
